A study of Homo sapiens with 70 samples.

Results

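The CCAAT/enhancer-binding proteins (C/EBPs) were followed as a family of 5 genes, CEBPA, CEBPB, CEBPD, CEBPG and CEBPZ, chosen by name and matched by Ensembl identifier among the 44503 genes counted by RNA-seq in 70 libraries. IMR90 cells are human lung fibroblasts, and in every IMR90 group they carried pLNCX2 ER:HRAS, an oncogenic HRAS fused to an oestrogen receptor domain. Adding 100 nM 4-hydroxytamoxifen (4OHT) for 6 days switches the fusion on and drives the cells into oncogene-induced senescence (OIS), and cells without 4OHT were growing (Grow).

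In the first IMR90 experiment growing and senescent cells were each measured without and with shA1 (8 libraries per group). The shA1 groups carried a pMSCV miR vector against HMGA1, a chromatin protein of the high mobility group, and the others the empty vector. The second IMR90 experiment held 5 libraries in each of 5 groups. Grow-v-v and OIS-v-v carried an empty pSuper and an empty pMSCV miR vector, OIS-shCEBPB carried pSuper shCEBPB with the empty pMSCV miR vector, OIS-shp53 carried the empty pSuper vector with pMSCV miR p53, and OIS-shCEBPB-shp53 carried both hairpins. Every group of the second experiment but Grow-v-v received 4OHT, so knock-down of CEBPB was measured only in OIS. The H1299 experiment compared 7 libraries of H1299 non-small cell lung carcinoma cells with the empty vector and 6 with shHMGA1 (H1299-shA1), none treated with 4OHT. IMR90 cells were kept in 5% O2 and H1299 cells in atmospheric O2. Each knock-down rested on 1 hairpin in stably transduced populations, so an effect of the hairpin on another transcript cannot be told apart from an effect of the targeted gene.

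C/EBP proteins bind DNA as dimers through a basic leucine zipper (bZIP). C/EBPα restrains proliferation and drives differentiation of fat, liver and myeloid cells. C/EBPβ and C/EBPδ are induced by inflammatory signals, including IL6 acting through STAT3, and C/EBPβ is a known regulator of the inflammatory secretome of senescent cells. C/EBPβ is made in longer activating and shorter inhibitory forms by alternative translation of 1 mRNA, which read counts cannot separate. C/EBPγ lacks an activation domain of its own and pairs with other bZIP proteins, among them ATF4. CEBPZ carries the family name but encodes a CCAAT-box binding protein without a leucine zipper, and the protein name C/EBPζ is also used for the product of DDIT3 (CHOP).

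The windows around the start sites, from 250 bases before to 50 after, were read from RefSeq on GRCh38.p14, which held 6 windows for 4 of the 5 genes. They were searched on both strands for TGACGTCA (the CREB and ATF palindrome), TGACG (its left arm), TTGCGCAA and TTNNGNAA (a strict and a relaxed C/EBP motif), CCAAT, and TTCNNNGAA (a STAT motif). TTNNGNAA contains TTGCGCAA and TGACGTCA contains TGACG, so these overlap. The 5 stretches printed here are shown because they hold the matches found upstream of a start site. Capitals mark TGACG or CCAAT, with ATTGG standing for CCAAT on the other strand.
CEBPB, chr20:50190760-50190789, plus strand, match 57 bases upstream: ggaggggccggcgTGACGcagcggttgcta
CEBPB, chr20:50190580-50190609, plus strand, match 245 bases upstream: cgctcCCAATcccggggcggccgggcgggg
CEBPG, chr19:33373611-33373640, plus strand, match 85 bases upstream: cagcctgcccacgATTGGtcgactgggctg
CEBPG, chr19:33373672-33373701, plus strand, match 24 bases upstream: ggccggcgctcccATTGGccgggatggcgg
CEBPZ, chr2:37231754-37231783, minus strand, match 174 bases upstream: gcttcgaggggacTGACGcttacctgcgcg
TGACG was present in 24.55% and CCAAT in 34.61% of all 35116 windows. TGACGTCA (1.85% of all windows), TTGCGCAA (0.15%), TTNNGNAA (36.84%) and TTCNNNGAA (7.66%) had no match in the 6 windows, and the CEBPA window held none of the 6 motifs. A match is a run of letters and says nothing of binding.

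The libraries held 1903607 to 24890797 counts, and all but 1, OIS replicate 4 at the lower end, held at least 13904974. Levels are given as CPM, counts scaled to library size with trimmed mean of M-values (TMM) factors within a table, or, to compare genes with each other, as RPKM, which also divides by exon length. The 3 tables were scaled separately, so levels are compared within a table. The shHMGA1 hairpin lowered its target: HMGA1 was 482 ± 41.4 CPM in Grow and 34.6 ± 3.92 in Grow-shA1 (SD, n = 8). All 8 fibroblast markers averaged at least 1 CPM in each IMR90 group, none of the 5 blood cell markers did, and 2 to 4 of the 6 epithelial markers did. Of the 3 endothelial markers matched, 1 reached that level in OIS, 2 in OIS-v-v and in OIS-shp53, and none in the other IMR90 groups. The sum of the 3 was at most 6.25 CPM in any IMR90 library. H1299 cells had 2 or 3 of the 8 fibroblast, 2 of the 6 epithelial and 1 or 2 of the 5 blood cell markers at that level. In bulk RNA, a change in the share of cells that express a gene cannot be told apart from a change in RNA per cell.

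On hg19, CEBPB (ENSG00000172216) lies on chr20:48807376-48809212 on the plus strand and has 1 exon. CEBPD (ENSG00000221869) lies on chr8:48649471-48651648 on the minus strand with 1 exon. CEBPA (ENSG00000245848, 1 exon, minus strand, chr19:33790840-33793470) and CEBPG (ENSG00000153879, 3 exons, plus strand, chr19:33864236-33873592) are neighbours on chromosome 19, 70766 bases apart. CEBPZ (ENSG00000115816) has 17 exons on the minus strand at chr2:37428755-37458856.

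Knock-down of CEBPB was read first in the targeted gene. CEBPB was 296, 286, 329, 259 and 306 CPM in the 5 OIS-v-v libraries and 36.6, 40.1, 42.7, 31.4 and 26.6 CPM in the 5 OIS-shCEBPB libraries, in order of replicate number. The groups were far apart, and OIS-shCEBPB also lay below the 5 Grow-v-v libraries (159 to 189.7 CPM). The log2 fold change against OIS-v-v was -3.06 ± 0.13 (SE, n = 5 per group, edgeR quasi-likelihood test, adjusted p = 2.71e-08), an 8.34-fold fall. In that comparison 17.1% of the 13396 genes tested were called at an adjusted p below 0.05, and 3 of the 4 C/EBP genes tested were called.

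CEBPD rose when CEBPB was depleted. It was 109, 103, 117, 76.2 and 82.5 CPM in OIS-v-v and 148, 152, 169.95, 185 and 169.998 CPM in OIS-shCEBPB, so that the lowest depleted library stood above the highest OIS-v-v library. The log2 fold change was 0.75 ± 0.11 (SE, adjusted p = 0.000666), a 1.68-fold rise, and it lay between 0.67 and 0.82 when each of the 10 libraries was left out in turn. In OIS-v-v replicates 4 and 5 stood below the others, and the rise was larger in those pairs than in replicates 1 to 3. Leaving out 1 library at a time does not remove both. Against Grow-v-v, where CEBPD was 44.4 to 73.3 CPM, OIS-shCEBPB was 2.71-fold higher (log2 1.44 ± 0.14, adjusted p = 4.61e-06).

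CEBPG fell with CEBPB. Its libraries were at 31.9, 31.5, 37.2, 42.7 and 42.5 CPM in OIS-v-v and at 24.9, 25.05, 29.3, 28.6 and 27.3 CPM in OIS-shCEBPB, again without overlap. The log2 fold change was -0.46 ± 0.10 (adjusted p = 0.00638). In OIS-v-v replicates 4 and 5 stood above the others, and the drop was larger in those pairs than in replicates 1 to 3.

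CEBPZ was 56.7, 60.4, 64.5, 75.1 and 67.0 CPM in OIS-v-v and 48.2, 49.5, 49.3, 62.8 and 62.8 CPM in OIS-shCEBPB. The groups overlapped, and the log2 fold change of -0.26 ± 0.10 missed the threshold (adjusted p = 0.103). Libraries with the same replicate number varied together in this experiment. CEBPZ was lower in OIS-shCEBPB in 5 of 5 such pairs, and with the replicate number as a block the same difference of -0.26 was called (adjusted p = 0.00155). CEBPZ also shares 351 exon bases with CEBPZOS and 408 with ENSG00000272054 (mean 0.27 CPM in this experiment), both on the other strand. In counts made without strand, reads from the shared bases cannot be told apart, and the strand setting of this experiment is not stated. CEBPZOS moved the other way (log2 0.26 ± 0.07, adjusted p = 0.0202).

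**Figure D1:**
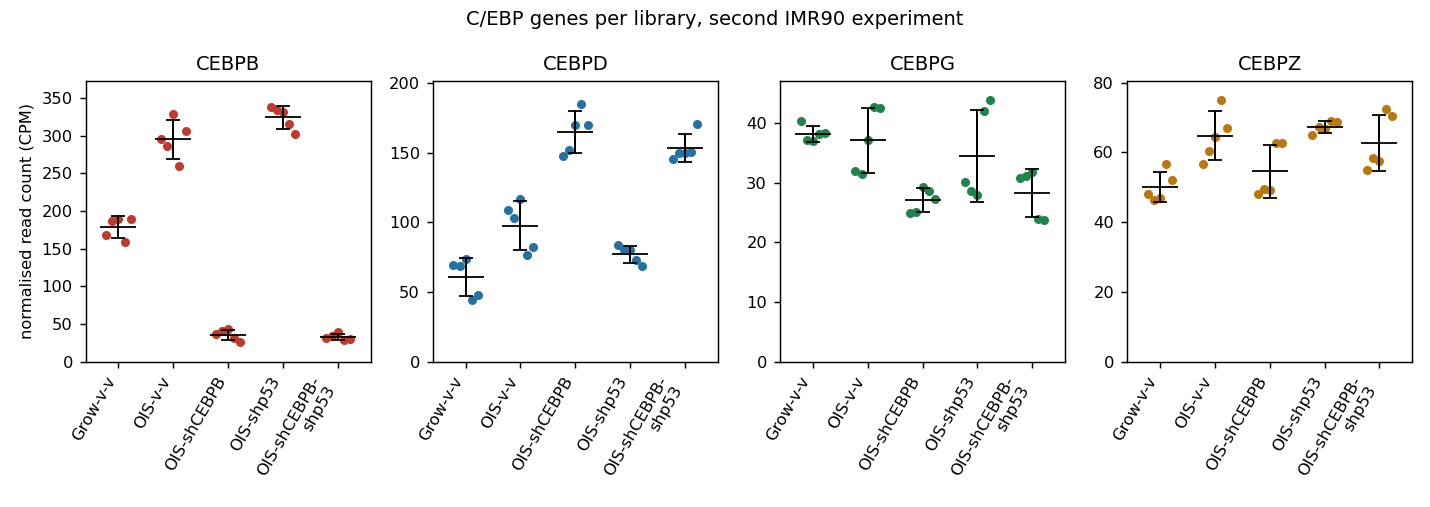
Normalised read counts (CPM, linear axes from 0) of CEBPB, CEBPD, CEBPG and CEBPZ in the second IMR90 experiment. Points are single libraries in order of replicate number, the long bar is the mean and the whiskers are 1 SD (n = 5 per group). CEBPB fell to means of 35.5 and 32.5 CPM in the groups with shCEBPB, where CEBPD stood at means of 165 and 153 CPM, above the other 3 groups.

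The same pair of changes was measured among cells carrying shp53. In the combined knock-down CEBPB was 28.4 to 38.9 CPM, against 303 to 338 CPM in OIS-shp53 (log2 -3.33 ± 0.08, adjusted p = 4.92e-11). CEBPD was 83.4, 79.8, 79.9, 73.1 and 68.8 CPM in OIS-shp53 and 146, 149.996, 149.9, 150.1 and 171 CPM in OIS-shCEBPB-shp53, with no overlap and a log2 fold change of 0.98 ± 0.06 (adjusted p = 2.15e-07). Here too the rise in CEBPD was largest in replicates 4 and 5. CEBPB and CEBPD were 2 of 4 C/EBP genes called, where 27.6% of all 13428 genes were.

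CEBPG in the cells carrying shp53 was split by replicate. Replicates 1 to 3 were at 30.1, 28.6 and 27.9 CPM in OIS-shp53 and at 30.8, 31.1 and 31.8 CPM with both hairpins, whereas replicates 4 and 5 were at 42.1 and 43.8 CPM in OIS-shp53 and at 23.9 and 23.7 CPM with both. The combined knock-down was thus higher in 3 of 5 pairs and lower in 2, and the log2 fold change of -0.30 ± 0.14 was not called (adjusted p = 0.146). CEBPZ was -0.12 ± 0.07 (adjusted p = 0.268).

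The shCEBPB effect was then compared between cells with and without shp53 through the interaction term. It was 0.24 ± 0.14 for CEBPD, with a 95% interval of -0.04 to 0.52, -0.26 ± 0.15 for CEBPB, 0.17 ± 0.19 for CEBPG and 0.15 ± 0.13 for CEBPZ. None of the 4 was called (adjusted p = 0.999 for each by edgeR's quasi-likelihood test), where 0.0432% of 13873 genes were. That is 6 genes, while 682 had an unadjusted p below 0.05, none of the 4 C/EBP genes among them. With the replicate block the adjusted p lay between 0.261 and 0.701 for the 4 genes. The intervals leave room for differences of either sign, so a like response with and without shp53 was not shown.

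Set against OIS-v-v, the combined knock-down gave 3 calls among 4 C/EBP genes, where 33.6% of all genes were called. CEBPB was at -3.19 ± 0.10, CEBPD at 0.64 ± 0.11 (adjusted p = 0.000878) and CEBPG at -0.41 ± 0.12 (adjusted p = 0.0194). CEBPG was lower with both hairpins in 5 of 5 same-numbered pairs, and by most in replicates 4 and 5. CEBPZ was -0.06 ± 0.10 (adjusted p = 0.678). Without TMM factors, scaled by library size only, the CEBPG call was lost (-0.31, adjusted p = 0.0798).

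Depletion of CEBPB changed the make-up of the family's transcripts. In OIS-v-v, CEBPB made up 69.3 ± 1.34% of the summed RPKM of the 5 genes and CEBPD 19.3 ± 2.43%. In OIS-shCEBPB, CEBPD made up 65.1 ± 2.15% and CEBPB 16.7 ± 3.41% (SD, n = 5). The ratio of CEBPB to CEBPD went from 3.66 ± 0.53 to 0.258 ± 0.06, and in the combined knock-down it was 0.253 ± 0.04. The summed amount fell: the RPKM of CEBPB and CEBPD together was 205 ± 20.2 in OIS-v-v and 95.01 ± 6.26 in OIS-shCEBPB, below the 125 ± 11.6 RPKM of Grow-v-v. The sum over the 5 genes was 147 in Grow-v-v, 232 in OIS-v-v, 116 in OIS-shCEBPB, 238 in OIS-shp53 and 112 in the combined knock-down. These shares are of transcripts per exon length and say nothing of protein.

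**Figure D2:**
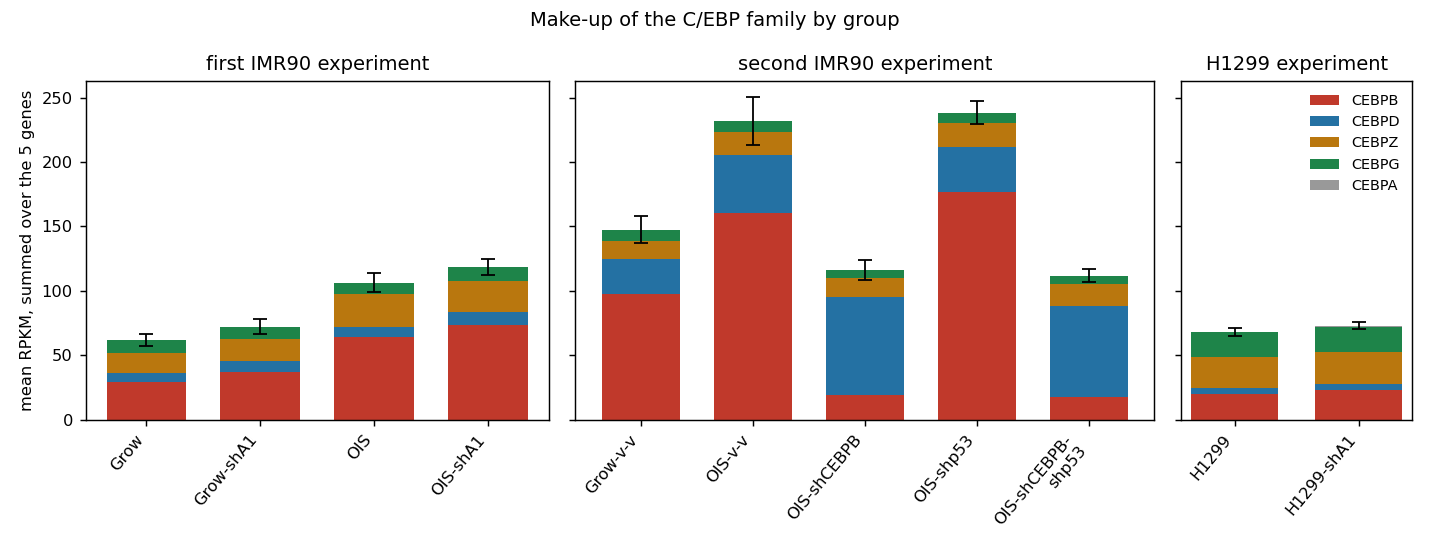
Mean RPKM of each C/EBP gene, stacked, by group, for the 3 experiments on 1 linear axis (tables were scaled separately). Whiskers are 1 SD of the sum over libraries (n = 8, 5, and 7 or 6). The second IMR90 experiment shows CEBPB as the largest part in OIS-v-v (69.3%) and CEBPD as the largest part in OIS-shCEBPB (65.1%), with a sum that fell from 232 to 116.

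The shp53 vector alone gave no call among the 4 C/EBP genes tested by edgeR's quasi-likelihood test, where 4.44% of 13378 genes were called. CEBPD came nearest. It was lower in OIS-shp53 in 5 of 5 same-numbered pairs, with libraries at 68.8 to 83.4 CPM against 76.2 to 117 CPM in OIS-v-v, and a log2 fold change of -0.34 ± 0.11 (unadjusted p = 0.0101, adjusted p = 0.112). With the replicate block the difference was -0.33 and was called (adjusted p = 0.00155), and without OIS-v-v replicate 4 it was -0.42 (adjusted p = 0.0276). CEBPD was the 1 gene of the 4 with an unadjusted p below 0.05. CEBPB was 303 to 338 CPM in OIS-shp53, 3 of 5 libraries above all of OIS-v-v (log2 0.14 ± 0.06, adjusted p = 0.277, and 0.0539 with the block). CEBPG (-0.11 ± 0.15) and CEBPZ (0.05 ± 0.07) were within their errors.

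Adding shp53 to cells that already carried shCEBPB likewise gave no call among the 4 genes by the same test, and none had an unadjusted p below 0.05, where 14.8% of 13418 genes were called. CEBPD was -0.11 ± 0.07 (adjusted p = 0.300), CEBPB -0.13 ± 0.13 and CEBPG 0.06 ± 0.09. CEBPZ was 0.20 ± 0.10 (adjusted p = 0.200). It was higher with both hairpins in 5 of 5 pairs and was called with the replicate block (0.20, adjusted p = 0.000881).

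The order of the levels in the second experiment differed between the genes. For CEBPB it ran from OIS-shp53 (325 ± 14.9 CPM) and OIS-v-v (295 ± 25.7), which overlapped, through Grow-v-v (179 ± 14.3) to OIS-shCEBPB (35.5 ± 6.56) and the combined knock-down (32.5 ± 4.18), which overlapped. For CEBPD it ran from OIS-shCEBPB (165 ± 15.02) and the combined knock-down (153 ± 10.0), which overlapped, to OIS-v-v (97.6 ± 17.4), OIS-shp53 (77.0 ± 5.91) and Grow-v-v (60.6 ± 13.5), each overlapping the next. CEBPG lay between 27.03 and 38.2 CPM on average, lowest in the 2 groups with shCEBPB. CEBPZ lay between 50.004 and 67.3 CPM, lowest in Grow-v-v.

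CEBPB rose in OIS in both IMR90 experiments. OIS and growing cells differed by 4OHT and active HRAS as well as by their state, which cannot be told apart. In the first, CEBPB was 42.6 to 65.8 CPM (median 52.9) in Grow and 98.7 to 143 CPM (median 111) in OIS. The groups did not overlap, and the log2 fold change was 1.20 ± 0.08 (SE, n = 8 per group, adjusted p = 6.13e-14), a 2.30-fold rise. In the second, the 5 Grow-v-v libraries were at 168, 187, 189.6, 159 and 189.7 CPM, below the lowest OIS-v-v library at 259 CPM, and the log2 fold change was 0.74 ± 0.09 (adjusted p = 2.53e-05), a 1.67-fold rise.

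CEBPZ rose in both without overlap: from 54.8 to 62.0 CPM in Grow to 77.8 to 108 CPM in OIS (0.71 ± 0.06, adjusted p = 4.48e-12), and by 0.39 ± 0.10 in the second (adjusted p = 0.00551). CEBPD rose 1.62-fold in the second experiment, where Grow-v-v libraries were at 69.1, 68.5, 73.3, 44.4 and 47.5 CPM (0.70 ± 0.16, adjusted p = 0.00332). In the first it was 10.3 to 17.8 CPM in Grow and 9.53 to 22.4 CPM in OIS, and the overlapping groups differed by 0.32 ± 0.11 (adjusted p = 0.0122). The lowest OIS value came from the shallow library, with 20 counts, and without that library the difference was 0.35 ± 0.11 (adjusted p = 0.00399). CEBPG fell in the first experiment (median 44.2 CPM in Grow and 34.9 in OIS, -0.22 ± 0.07, adjusted p = 0.00455) and was at -0.03 ± 0.10 in the second (adjusted p = 0.850).

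All 4 genes tested were thus called in OIS against Grow and 3 of 4 in OIS-v-v against Grow-v-v, where 74.8% and 45.8% of all genes were called, so that calls among 4 genes say little about the family as such. Scaling by library size only moved the median of all genes by 0.19 in OIS against Grow. On that scale CEBPG was -0.03 (adjusted p = 0.697) and -0.24 below the median of all genes, so its fall is a fall relative to other genes. Whether the senescence response of a C/EBP gene differed between the experiments was not tested.

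**Figure D3:**
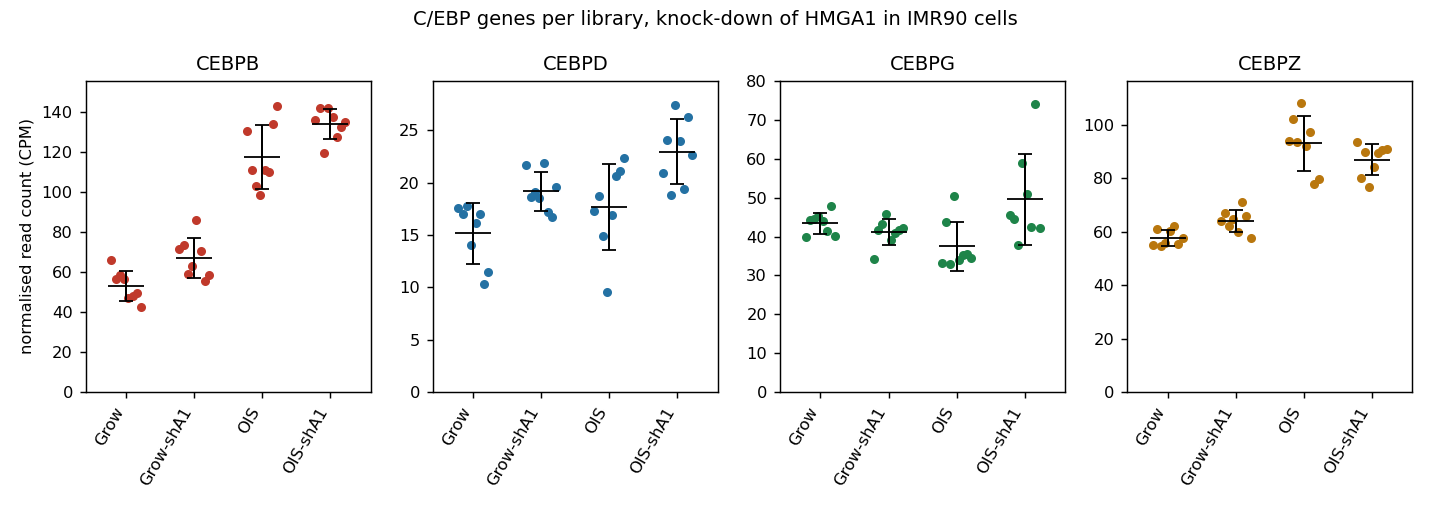
Normalised read counts (CPM, linear axes from 0) of CEBPB, CEBPD, CEBPG and CEBPZ in the first IMR90 experiment. Points are single libraries, the long bar is the mean and the whiskers are 1 SD (n = 8 per group). CEBPB and CEBPZ in OIS lay above every Grow library, while 1 OIS-shA1 library stood at 74.1 CPM for CEBPG, above the others of its group.

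Knock-down of HMGA1 in growing cells raised 3 of the 4 C/EBP genes, where 29.9% of 13072 genes were called. CEBPB was 55.8 to 85.9 CPM in Grow-shA1 (median 66.9), 4 of 8 libraries stood above all of Grow, and the difference was 0.34 ± 0.09 on the log2 scale (adjusted p = 0.00317). CEBPD was 16.7 to 21.9 CPM against 10.3 to 17.8 CPM (0.34 ± 0.10, adjusted p = 0.00972). CEBPZ rose by 0.15 ± 0.04 (adjusted p = 0.0114), and CEBPG was -0.08 ± 0.05 (adjusted p = 0.295).

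In senescent cells the largest change with shA1 was in CEBPG. It was 32.98 to 50.5 CPM in OIS (median 34.9) and 37.8 to 74.1 CPM in OIS-shA1 (median 45.1), 3 of 8 libraries lay above every OIS library, and the log2 fold change was 0.44 ± 0.11 (adjusted p = 0.00160), with a range of 0.34 to 0.49 when 1 library was left out. CEBPD rose by 0.31 ± 0.10 (18.8 to 27.4 CPM against 9.53 to 22.4, adjusted p = 0.0147). CEBPB differed by 0.18 ± 0.06 (120 to 142 CPM against 98.7 to 143, adjusted p = 0.0283), and no OIS-shA1 library lay above the highest OIS library. CEBPZ was -0.08 ± 0.06 (adjusted p = 0.271). These were 3 calls of 4, where 35.9% of 13327 genes were called. The CEBPB call was lost in 6 of 16 fits that left out a library (OIS-shA1 replicate 2 or 4, OIS replicate 2, 3, 5 or 6, with changes of 0.14 to 0.16 and adjusted p of up to 0.0737) and with all 4 groups in 1 fit (0.18, adjusted p = 0.0716). With library sizes alone the calls of CEBPB (0.09, adjusted p = 0.258) and CEBPD (0.22, adjusted p = 0.0682) were lost and CEBPZ was called (-0.17, adjusted p = 0.0208).

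The difference of the shA1 effect between OIS and Grow was tested by the interaction term. CEBPG differed by 0.52 ± 0.13 (95% interval 0.26 to 0.78, adjusted p = 0.00248), with shA1 moving it up in OIS and by -0.08 in Grow. CEBPZ differed by -0.24 ± 0.08 (adjusted p = 0.0194), with a rise in Grow and -0.08 in OIS. CEBPB (-0.17 ± 0.11, adjusted p = 0.301) and CEBPD (-0.03 ± 0.15, adjusted p = 0.915) were not called, with intervals of -0.39 to 0.06 and -0.32 to 0.27. The 2 calls of 4 stand beside 23.6% of 13903 genes.

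With HMGA1 depleted in both states, OIS-shA1 against Grow-shA1, all 4 genes tested were higher in senescence, where 73.1% of 13239 genes were called. CEBPB was 2.02-fold higher (1.02 ± 0.07), CEBPZ 0.46 ± 0.05, CEBPD 0.28 ± 0.08 (adjusted p = 0.00303) and CEBPG 0.29 ± 0.10 (adjusted p = 0.0109). The sum of the 5 genes in RPKM was 61.5 ± 4.80 in Grow, 72.2 ± 5.72 in Grow-shA1, 106 ± 7.45 in OIS and 119 ± 6.20 in OIS-shA1, and CEBPB made up 46.8%, 50.4%, 60.1% and 61.6% of it.

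When OIS-shCEBPB was set against growing cells in place of OIS-v-v, 3 of 4 C/EBP genes were called, where 46.3% of 13384 genes were. CEBPB was at 19.9% of its Grow-v-v mean (-2.33 ± 0.13), CEBPD was higher as given above, and CEBPG was lower without overlap (24.9 to 29.3 CPM against 37.1 to 40.4, -0.50 ± 0.07, adjusted p = 9.68e-05). CEBPZ was 0.12 ± 0.10 (adjusted p = 0.345).

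**Figure D4:**
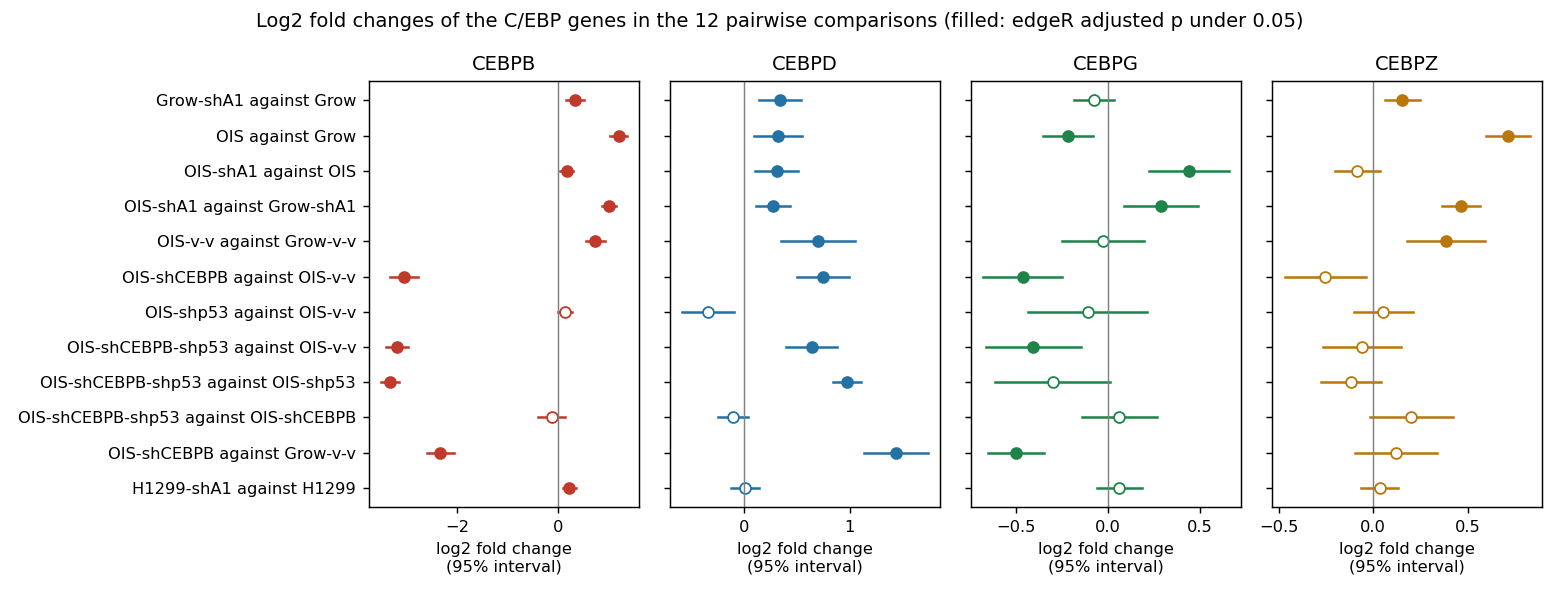
Log2 fold changes of 4 C/EBP genes in the 12 pairwise comparisons, 1 panel per gene with its own linear axis. Points are edgeR estimates, bars are 95% intervals, and filled points have an adjusted p below 0.05 over all genes tested. CEBPB spans -3.33 to 1.20, and CEBPD is highest, at 0.98 and 1.44, where groups with shCEBPB are set against OIS-shp53 and Grow-v-v.

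In H1299 cells CEBPZ made up 35.05 ± 1.38% of the summed RPKM, CEBPB 28.6 ± 1.04%, CEBPG 27.98 ± 0.87%, CEBPD 7.58 ± 0.37% and CEBPA 0.8295 ± 0.18% (SD, n = 7). The balance also differed between the growing cells of the 2 IMR90 experiments. There CEBPB made up 46.8% in Grow and 65.9% in Grow-v-v, and CEBPZ 25.9% and 9.39%. A difference between the cell lines was not tested. Knock-down of HMGA1 took HMGA1 from 1888 ± 94.6 to 379 ± 35.4 CPM. CEBPB was 33.5 to 41.9 CPM (median 35.1) in H1299 and 35.5 to 46.9 CPM (median 41.8) in H1299-shA1, and rose by 0.22 ± 0.06 (n = 7 and 6, adjusted p = 0.0211). This was 1 call of 5, where 15.6% of 14840 genes were called. The call was lost without H1299-shA1 replicate 2 or 4 or H1299 replicate 3, with adjusted p between 0.0504 and 0.0539.

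The other members were not called in H1299 cells. CEBPA was 1.15 to 2.04 CPM in H1299 and 1.27 to 2.40 CPM in H1299-shA1 (0.33 ± 0.17, 95% interval -0.02 to 0.69, adjusted p = 0.196). CEBPD was 11.3 ± 0.50 and 11.3 ± 0.996 CPM, CEBPG 84.3 ± 5.73 and 87.9 ± 8.40, and CEBPZ 87.1 ± 1.93 and 89.1 ± 7.08, with log2 differences of 0.01 ± 0.06, 0.06 ± 0.06 and 0.03 ± 0.05.

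**Figure D5:**
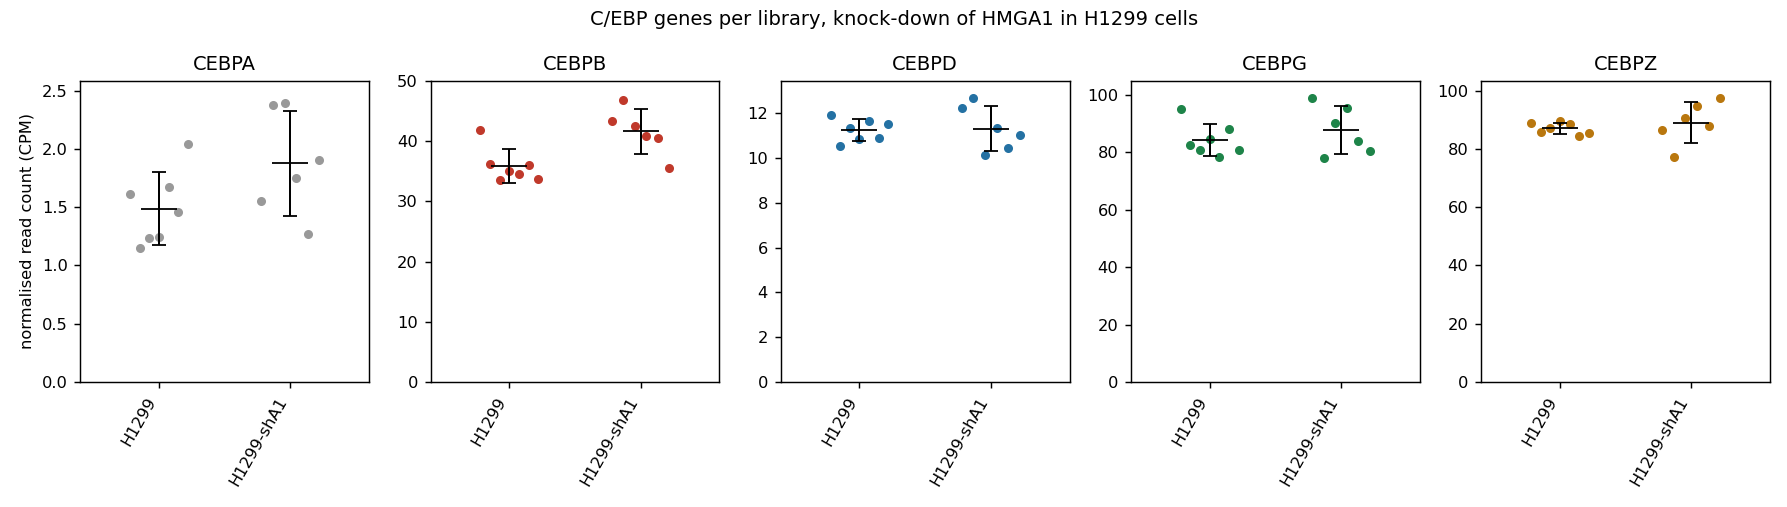
Normalised read counts (CPM, linear axes from 0) of the 5 C/EBP genes in H1299 cells with the empty vector (n = 7) and with shHMGA1 (n = 6). Points are single libraries, the long bar is the mean and the whiskers are 1 SD. CEBPB is the gene that was called (medians 35.1 and 41.8 CPM), and H1299 replicate 1 stands at 41.9 CPM, above the others of its group.

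CEBPA was at or near 0 counts in IMR90 cells. It had 0 counts in 27 of 32 libraries of the first experiment and at most 2 counts in the others, and 0 counts in 11 of 25 libraries of the second and at most 6 in the others. The limit that 0 counts leave, set at 3 counts, was 0.136 to 1.58 CPM in the first and 0.121 to 0.206 CPM in the second, for counting error only. It was too low to be tested there, so that no response to CEBPB depletion was detectable at this depth. In H1299 it had 23 to 56 counts in every library. The exons of CEBPA overlap 2 genes on the other strand, both at 0 counts in all 3 tables.

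Genes around the family were described by lists chosen for their known ties to it. The median over all genes tested lay between -0.01 and 0.03 in every comparison, and the share of all genes called is given with each count. The first list held 20 inflammatory and acute phase genes with known C/EBP sites. In OIS-shCEBPB against OIS-v-v, 9 of 14 tested fell and 2 rose, with a median of -1.49, where 17.1% of all genes were called. CSF3, a granulocyte growth factor, fell by 3.40 on the log2 scale, and PTGS2, the inducible cyclooxygenase, fell by 3.04. The members that rose were the chemokine CCL2 (2.36) and the pentraxin PTX3 (2.06). Among cells carrying shp53 10 of 14 fell and 2 rose (27.6% of all genes called), again CCL2 (1.79) and PTX3 (2.20). In OIS against Grow the list moved the other way, with 10 of 14 up and 2 down (median 1.72, 74.8% of all genes called), CSF3 at 5.77 and CXCL3 at 4.91, and with CCL2 (-1.39) and PTX3 (-0.49) down. In OIS-v-v against Grow-v-v 9 of 14 rose and 1 fell (median 1.79, 45.8% of all genes called), and the gene that fell was CCL2 (-0.91). The list did not follow CEBPB in every contrast. In OIS-shCEBPB against Grow-v-v, where CEBPB was lower, 5 of 14 rose and 1 fell (median 0.54, 46.3% of all genes called). With shA1, 10 of 14 rose and 2 fell in growing cells (median 1.29, 29.9% of all genes called). In OIS-shA1 against OIS 9 of 14 rose and 3 fell (median 0.35, 35.9% of all genes called).

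IL6 to STAT3 signalling lies upstream of CEBPB and CEBPD. With CEBPB depleted, 6 of 10 tested genes of that list fell and none rose (median -0.70, 17.1% of all genes called). Among them were the cytokine LIF (-1.69) and the receptor IL6R (-1.33). CEBPD rose in the same comparison, and a link between these changes was not tested. Among cells carrying shp53, 7 of 10 genes of the list fell and none rose, where 27.6% of all genes were called. In OIS against Grow 7 of 10 rose and 2 fell (LIF 2.51, IL6R 2.04), against 74.8% of all genes called. In OIS-v-v against Grow-v-v 6 rose and none fell (LIF 2.45), against 45.8%. In OIS-shCEBPB against Grow-v-v, where CEBPB was lower, 5 of 10 still rose and none fell, against 46.3%. IL6 itself is on both of these lists. In OIS-shp53 against OIS-v-v, 1 of 10 fell and none rose, against 4.44% of all genes called.

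Possible dimer partners were described in the same way. Of 15 bZIP genes tested in OIS-shCEBPB against OIS-v-v, 1 rose (ATF5, 0.24) and 4 fell (FOSB -0.94, JUN -0.56 the largest), with a median of -0.06, where 17.1% of all genes were called. In the combined knock-down against OIS-shp53, 4 rose and 6 fell, against 27.6% of all genes called. OIS against Grow had 6 up and 5 down of 15, a share near the 74.8% of all genes called there, with FOSB at 2.42, FOS at 1.68, FOSL2 at -0.9996 and ATF4 at -0.97. DDIT3 rose by 1.91 in OIS against Grow in the first experiment and by 0.62 in the second (adjusted p = 0.00109), was -0.20 and not called in OIS-shCEBPB against OIS-v-v, and was -0.31 in the combined knock-down against OIS-shp53 (adjusted p = 0.0429). CEBPE, a myeloid member of the family, was not tested in any comparison.

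The 12 genes for turnover and modification of C/EBP proteins include the tribbles pseudokinases, some of which bring C/EBPs to degradation, and kinases that phosphorylate C/EBPs. In OIS-shCEBPB against OIS-v-v, 1 rose (FBXW7, a ubiquitin ligase subunit, 0.53) and 3 fell (TRIB1 -0.97, TRIB3 -0.76), against 17.1% of all genes called. In OIS against Grow 8 of 12 rose and 1 fell, near the 74.8% of all genes called there, with the largest rises in TRIB1 (2.27) and the kinase RPS6KA3 (1.41).

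The ATF4 stress response list was followed because its factor pairs with C/EBPγ. In Grow-shA1 against Grow 9 of 12 fell and 2 rose (median -0.57, 29.9% of all genes called), with the serine and asparagine synthesis genes PSAT1 at -1.56 and ASNS at -1.44, while in OIS-shA1 against OIS 2 rose and 4 fell (35.9% of all genes called) and ATF4 itself was at 0.77. The difference of the shA1 effect, OIS less Grow, was called above 0 for 8 and below 0 for 1 of the 12, where 23.6% of all genes were called. Its median over the 12 was 0.72, and ATF4 differed by 0.91. CEBPG was at 0.52 in the same contrast. In H1299-shA1 against H1299 9 of 12 rose and none fell (SLC7A11 1.11, CHAC1 0.99, 15.6% of all genes called), while CEBPG was at 0.06. With CEBPB depleted, in OIS-shCEBPB against OIS-v-v, 1 of 12 rose and 2 fell (17.1% of all genes called).

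The 8 fat cell genes tied to C/EBPα were mostly too low to be tested. PPARG rose in OIS-shCEBPB against OIS-v-v (0.89, adjusted p = 0.00131 by edgeR), 1 of 2 tested, where 17.1% of all genes were called. It fell in OIS against Grow (-1.68), where it was the 1 gene tested and 74.8% of all genes were called.

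Markers of proliferation and senescence moved with some of these contrasts. The summed level of 6 cell cycle genes was 1255 to 1580 CPM in Grow and 148 to 215 CPM in OIS. It was 193 to 341 CPM in OIS-v-v, 276 to 413 in OIS-shCEBPB and 435 to 467 in the combined knock-down. Against OIS-v-v, 0 of the 6 were called in OIS-shCEBPB (17.1% of all genes called). In the combined knock-down 5 of 6 rose against OIS-v-v (33.6% of all genes called). The summed level of 4 senescence markers was 1302 to 2166 CPM in OIS-v-v, 2029 to 2380 CPM in OIS-shCEBPB and 474 to 617 CPM in OIS-shp53. In OIS-shCEBPB against OIS-v-v 0 of the 4 were called (17.1% of all genes called). In OIS-shp53 against OIS-v-v 1 fell and 0 rose, with a median of 0.12 (4.44% of all genes called), so the lower sum does not stand for all 4 genes. In OIS against Grow 3 of the 4 rose and 1 fell (74.8% of all genes called). The part of cell cycle state in the C/EBP values was not tested.

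Genes next to the members were examined because neighbouring genes can share reads. SPIDR ends 603 bases from CEBPD on the opposite strand. It rose with CEBPD in OIS-shCEBPB against OIS-v-v (0.29 ± 0.06, adjusted p = 0.00706) and in the combined knock-down against OIS-shp53 (0.36 ± 0.06, adjusted p = 0.00115), but fell where CEBPD rose in OIS-v-v against Grow-v-v (-0.38 ± 0.08, adjusted p = 0.00167). PEPD, 4264 bases beyond CEBPG, rose with it in OIS-shA1 against OIS (0.35 ± 0.07, adjusted p = 0.000151) and was -0.02 ± 0.05 in OIS-shCEBPB against OIS-v-v. PEDS1, 37041 bases from CEBPB, fell in OIS against Grow (-0.35 ± 0.06), opposite to CEBPB. CEBPZOS and NDUFAF7, which overlap CEBPZ by 351 and 83 bases, both rose with it in OIS against Grow (0.40 and 0.65).

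Genes most like each member were ranked among 12186 genes by the lower of the Pearson correlations of log2 CPM over the 32 libraries of the first and the 25 of the second IMR90 experiment. The libraries share their group structure, so the values describe common group differences. For CEBPB these were AKR1B1 (0.94 and 0.91), MEDAG, BEST1, TIMP1 and ARHGEF2. For CEBPZ they were GNL3 (0.92 and 0.92), STK24, MTAP, TFRC and UBE2E3. CEBPD and CEBPG had no close match, with H2AC25 (0.76 and 0.75) first for CEBPD, before VAT1, CORO1B, LY96 and MPG, and RNF13 (0.68 and 0.70) first for CEBPG, before ARL1, SNTB1, BBIP1 and FAP.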

How the data were processed

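RNA-seq libraries from polyadenylated RNA were aligned by the authors with STAR to hg19, and the deposited tables hold raw counts per gene from featureCounts with GENCODE 19. Per the file headers, version 1.5.2 counted without strand in the first IMR90 and the H1299 table, and the second IMR90 table states no settings. Kits and instruments differed among libraries and the labels do not say which was used where.

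Counts were tested per pair of groups with edgeR (version 4.0.16, R 4.3.3): filterByExpr, TMM factors and the quasi-likelihood F test, with Benjamini-Hochberg adjustment over all genes tested and a threshold of 0.05. SE was the log2 fold change over the root of F. CPM and RPKM (exon lengths as deposited) used TMM factors over a table. CEBPA was not tested in IMR90. The fits were tested on simulated data. The labels speak of 6 biological replicates, whereas the tables hold 8, 5, 7 or 6 libraries per group, and they name no separate transductions, so p-values measure the spread between these libraries.

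Same-numbered libraries in the second IMR90 experiment deviated together (r over 0.1 in every pair examined, 0.41 to 0.56 for OIS-shCEBPB and OIS-v-v, except OIS-shCEBPB with Grow-v-v, lowest 0.085), so the replicate block is given where it changed a call. Grow-v-v was not examined with the groups carrying shp53. Among the OIS groups the closest match of a library carried its own number in 18 of 30 cases, so the number was not always the closest match. The pairing rests on these correlations, not on the labels.

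The members and lists were chosen with earlier results of these data known. The level of the gene targeted by shp53 is not reported here. Text names the 5 members, the other targeted genes, and of each list at most the 2 largest rises and falls among called genes of at least 1 CPM, besides neighbours and the 5 most alike genes. SOD2 and PECAM1 were not matched. Alternatives were DESeq2 (1.42.0), other scaling, filters, 1 fit for all groups, the replicate block, leaving out each library, and CPM in place of RPKM.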

Additional observations from a re-analysis of the deposited data

Results flagged for a closer look

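Of 46 groups of 4 to 10 libraries examined for a single value far from the others, 2 held one, where chance gives about 1 in 20. CEBPD in OIS-shCEBPB-shp53 replicate 5 was 171 CPM, with the other 4 libraries at 146 to 150.1 CPM. CEBPB in H1299 replicate 1 was 41.9 CPM, with the other 6 at 33.5 to 36.2 CPM.

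The effect of shA1 differed between senescent and growing cells by the interaction term for CEBPG (0.52 ± 0.13, adjusted p = 0.00248, edgeR) and for CEBPZ (-0.24 ± 0.08, adjusted p = 0.0194, edgeR).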

How the results depend on the processing

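DESeq2, upper-quartile factors, no filter on low counts and a filter of at least 10 counts in every library left the direction and the call of all 57 tested values of single C/EBP genes as they were. With library sizes alone 4 values lost their call and 1 gained it, and with all groups of an experiment in 1 fit 1 lost it, each given beside its result. With the replicate block the number of C/EBP genes called became 1 in OIS-shp53 against OIS-v-v (CEBPD) and 1 in OIS-shCEBPB-shp53 against OIS-shCEBPB (CEBPZ), and CEBPZ was called in OIS-shCEBPB against OIS-v-v. The replicate block changed no other call, in the first IMR90 and H1299 experiments included, where the numbers did not pair the libraries (r of -0.15 to 0.29). With 1 library left out, the number called lay between 0 and 1 in OIS-shp53 against OIS-v-v and in H1299-shA1 against H1299, 9 values of single genes lost their call and 1 gained it. Values that crossed 0 were never called: CEBPG in OIS-v-v against Grow-v-v (-0.0904 to 0.0272), CEBPZ in OIS-shCEBPB-shp53 against OIS-v-v (-0.109 to 0.00314, and 0.0428 with library sizes alone), CEBPD in H1299-shA1 against H1299 (-0.0253 to 0.0360) and CEBPD in the shA1 interaction (-0.0725 to 0.0325). Library sizes alone moved the median of all genes by 0.19 in OIS against Grow, 0.10 in OIS-shCEBPB-shp53 against OIS-v-v and -0.12 in the shA1 interaction. With CPM in place of RPKM 40 of 55 shares moved by more than 1 SD, as CPM keeps gene length. Without OIS replicate 4 (1903607 counts) the C/EBP calls of OIS against Grow and of OIS-shA1 against OIS kept their direction and their side of the threshold.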
